A study of Mus musculus with 4 samples.

Results

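Gene deserts are long stretches of the genome without annotated genes, and this account concerns the binding peaks of the transcription factors Slug and Snail that lie inside them. A peak was counted as a desert peak when its midpoint lay outside every gene of the mouse RefSeq annotation, of any biotype, and more than 100 kb from the nearest gene end, on chromosomes 1 to 19. By that rule 1571 of 40323 autosomal Slug peaks (3.90%, 95% Clopper-Pearson interval 3.71 to 4.09) and 210 of 27796 autosomal Snail peaks (0.756%, 0.657 to 0.864) were desert peaks, or 1781 of the 69987 peaks in both lists with the sex chromosomes included.

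The peaks come from chromatin immunoprecipitation followed by sequencing (ChIP-seq) in breast cancer cell lines of the MMTV-PyMT mouse model, in which a mammary tumour virus promoter drives the polyoma middle T oncogene. Slug was mapped in the line pBl.1G, described as epithelial with high Slug expression, and Snail in pBl.3G, described as mesenchymal with high Snail expression, to ask how the factors differ in switching on the epithelial-mesenchymal transition (EMT). The series holds 4 samples, a ChIP and an input DNA library of each line, all from untreated cells fixed with 1% formaldehyde for 10 min. The inputs, whose titles spell the lines pB1.1G and pB1.3G, came without peaks and did not enter any count below. There was 1 ChIP library for each factor. Factor, antibody and cell line changed together, so their parts cannot be told apart. The Slug antibody is a rabbit monoclonal, and the label of the Snail library names an antibody against SNAIL + SLUG. Every interval below covers counting error only, no result has a replicate check, and the sequencing depth is unknown.

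Slug (gene Snai2) and Snail (gene Snai1) are zinc finger repressors of the same family, which bind E-box sequences with the core CAGGTG and are known for silencing epithelial genes during EMT. Many gene deserts flank developmental regulators, and some hold enhancers that act on a gene across long distances. Others hold no known regulatory element. Positions are on mm10, whose chromosomes are those of the RefSeq assembly GRCm38.p6.

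The sequences of the desert peaks themselves were not analysed here, since no genome was used. Promoter sequences were at hand for 26 of the 32 protein-coding genes on either side of the deserts named below. Snail peaks overlapped the stretch from 250 bases before to 50 bases after a start site at 17 of these 26 genes, against 52.6% of 16457 autosomal protein-coding genes with such a sequence. Slug peaks did so at 2 of the 26, both of which were among the 17, against 4.73% of all. The 2 are shown because they are the genes next to a named desert where a peak of each list overlapped that stretch. The 250 bases before the start site are printed. The genes are Plet1 (chr9:50494275-50494524, plus strand), a cell surface protein of epithelial progenitors, and Actr3 (chr1:125435728-125435977, minus strand), a subunit of the actin-nucleating ARP complex. Capitals mark the E-box CAGGTG or its reverse complement CACCTG, searched on both strands.
Plet1: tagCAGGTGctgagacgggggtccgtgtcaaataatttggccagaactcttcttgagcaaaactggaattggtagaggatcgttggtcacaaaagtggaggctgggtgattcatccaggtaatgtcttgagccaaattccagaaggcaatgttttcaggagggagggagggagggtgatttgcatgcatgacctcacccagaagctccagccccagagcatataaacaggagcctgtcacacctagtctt
Actr3: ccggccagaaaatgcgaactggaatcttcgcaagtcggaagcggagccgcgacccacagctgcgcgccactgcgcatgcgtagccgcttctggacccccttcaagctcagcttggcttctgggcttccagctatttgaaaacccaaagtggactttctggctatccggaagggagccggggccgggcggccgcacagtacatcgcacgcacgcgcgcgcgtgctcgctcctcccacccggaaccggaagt
The Plet1 stretch held 1 E-box, at its far upstream end. That match lay outside both the Slug peak, which had a score of 67.5, and the Snail peak, with a score of 210.2. The Actr3 stretch held neither form of the letters, and its Slug and Snail peaks scored 83.8 and 1477. Of 32851 RefSeq promoter stretches of the same 250 bases, 5657 (17.2%) held the letters. A match is a description of the sequence and no evidence of a bound site.

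Desert peaks were rarer per length of sequence than peaks elsewhere in both libraries, by very different amounts. A desert is taken here as a gap between genes of more than 200 kb, and its core is the part more than 100 kb from both ends, where desert peaks can lie. The cores of 1147 deserts added up to 181 Mb, or 7.52% of the 2402 Mb between the first and last genes of the autosomes. Slug had 8.65 peaks per Mb of desert core (Poisson interval 8.23 to 9.09) and 17.4 per Mb elsewhere, a ratio of 0.496. Snail had 1.13 peaks per Mb of core (0.985 to 1.3) and 12.4 elsewhere, a ratio of 0.0914, so its density was 10.9 times higher outside the deserts. These densities leave out 8 Slug and 5 Snail desert peaks that lie before the first gene of chromosome 3.

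The fall of density with distance differed in shape between the lists. Within 1 kb of a gene, intergenic sequence held 26.3 Slug peaks per Mb and 52.4 Snail peaks per Mb. Slug density then fell to 11 per Mb at 50 to 100 kb and to 8.94 (8.42 to 9.48), 7.88 (7.01 to 8.84) and 8.32 (7.11 to 9.67) per Mb at 100 to 200, 200 to 300 and over 300 kb. The intervals of the last 2 bins overlap each other, and past 200 kb no further fall in Slug density was detectable. Snail density was 1.96 per Mb at 50 to 100 kb, 1.33 (1.13 to 1.55) at 100 to 200 kb, 0.646 (0.414 to 0.961) at 200 to 300 kb and 0.841 (0.490 to 1.35) beyond. The last 2 Snail bins rest on 24 and 17 peaks.

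**Figure D1:**
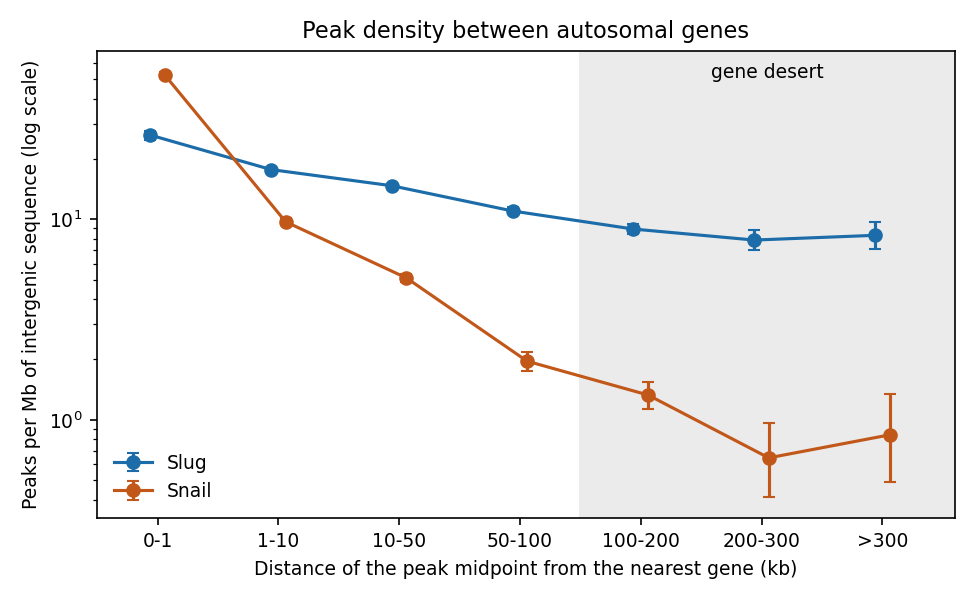
Peaks per Mb of autosomal intergenic sequence (log scale) by distance of the peak midpoint from the nearest gene, for Slug (blue) and Snail (orange), with 95% Poisson intervals; the shaded bins are the gene deserts. Snail starts higher than Slug, at 52.4 against 26.3 per Mb within 1 kb, and is lower in every other bin.

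Desert peaks had lower median scores and widths than other peaks in both lists, by little for Slug and by more for Snail. The score of a peak is the one given by the authors' peak caller, and it ranks peaks within a list but does not compare the strength of Slug with that of Snail. Slug desert peaks had a median score of 71.7 (quartiles 56.8 and 122), against 81.7 for other autosomal Slug peaks. Snail desert peaks had a median of 84.4 (64.0 and 126), against 151 for the others and 119 for Snail peaks between genes but within 100 kb of one. A score of at least 100 was reached by 33.0% of Slug desert peaks and 40.0% of the others, and by 35.7% and 63.0% in the Snail list. The median width was 183 bp for Slug desert peaks against 208 bp for the others, and 466 bp for Snail desert peaks against 726 bp. Low Snail medians were not particular to deserts. Between genes, the median Snail score was 512 within 1 kb of a gene and 92.6 at 1 to 10 kb. It was 89.0 at 10 to 50 kb, 80.5 at 50 to 100 kb and 84.8 at 100 to 200 kb. The median widths in these bins were 943, 549, 515, 462 and 484 bp. In all, the desert peaks covered 317 kb in the Slug list and 115 kb in the Snail list.

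**Figure D2:**
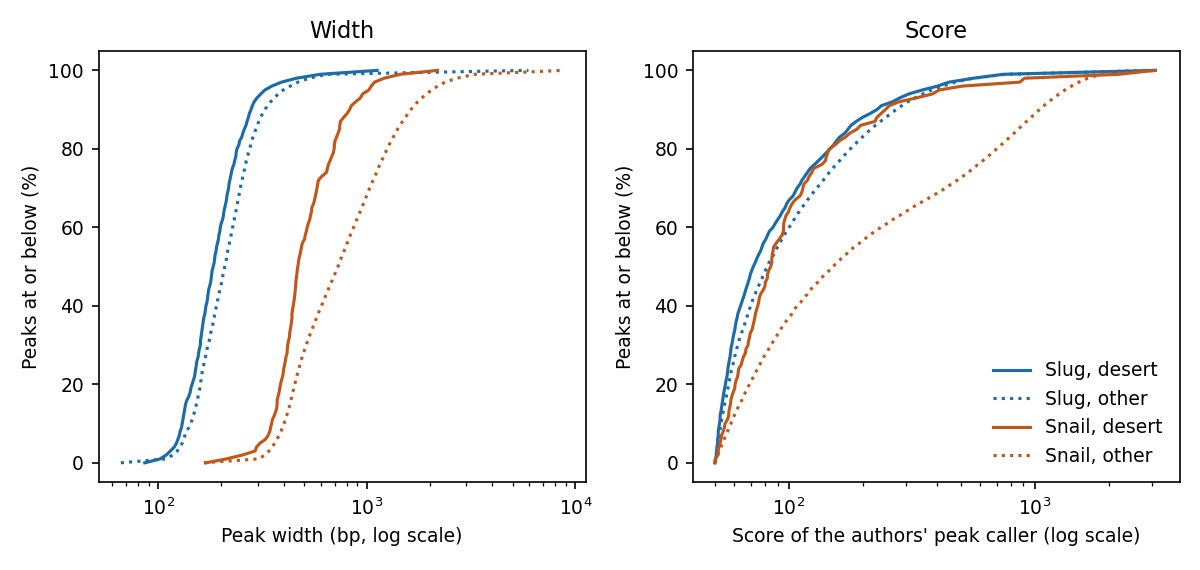
Cumulative percentage of peaks by width (left) and by the authors' score (right), both on log scales, for desert peaks (solid lines) and other autosomal peaks (dotted lines) of each list. The Snail desert curves lie far to the left of the other Snail peaks (median score 84.4 against 151), while the Slug curves lie close together (71.7 against 81.7).

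From the lowest to the highest quintile of the Slug list by score, the desert share went from 4.89% through 4.43, 3.67 and 3.65 to 2.85% (2.50 to 3.24). In the Snail list it went from 1.19% and 1.35% in the 2 lowest quintiles to 0.809, 0.288 and 0.144% (0.0622 to 0.283), the last being 8 of 5559 peaks. The very top of each list had larger desert shares than its highest quintile, though the Slug interval spans the 2.85%. Among the 100 highest-scoring Slug peaks 6 were desert peaks (interval 2.23 to 12.6%), and among the next 900 there were 30 (3.33%). The Snail list had 3 desert peaks among its top 100 (3.00%, 0.623 to 8.52) and 0 among the next 900, which allows a share of up to 0.333% by a limit of 3 counts and up to 0.409% by the Clopper-Pearson bound.

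The desert sites that both libraries shared were few in the Slug list and common in the Snail list. A peak was called shared when it overlapped a peak of the other list by at least 1 bp. Of the Slug desert peaks 92 (5.86%, 4.75 to 7.13) were shared, against 12.5% of other autosomal Slug peaks. Of the Snail desert peaks 80 (38.1%, 31.5 to 45.0) were shared, against 16.5% of the others. The intervals treat neighbouring peaks as independent, and some shared peaks lie close together. All 5 Snail desert peaks before the first gene of chromosome 3 were shared, and without chromosome ends the Snail share was 36.6%. All 3 Snail peaks of the desert chr18:81992081-82338406 were shared too. Both shares count the same places, so a small list of desert Snail peaks set against a longer list of Slug peaks ties them together. Within the Snail list the shared share was 30.9% at 50 to 100 kb from a gene, 29.3% at 100 to 200 kb, 58.3% (14 of 24 peaks, 36.6 to 77.9) at 200 to 300 kb and 76.5% (13 of 17, 50.1 to 93.2) beyond. Over the same bins the Slug share was 5.98, 5.08, 5.12 and 9.52%. The part of the antibody labelled for both proteins in these overlaps was not tested.

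The shared share went up with score inside deserts. The difference in slope from other peaks was not tested. In the lowest quintile of the Slug list 1.27% of desert peaks (0.413 to 2.94) and 8.89% of other peaks were shared, and in the highest quintile 19.6% (14.6 to 25.3) and 18.5% were. The shortfall of sharing among Slug desert peaks was thus in the lower 4 quintiles. Snail desert peaks were shared in 30.3% of cases in the lowest quintile (19.6 to 42.9) and in 87.5% in the highest (7 of 8 peaks, 47.3 to 99.7), while other Snail peaks stayed between 13.7 and 18.5%. Shared Slug desert peaks had a median score of 165 and a median width of 258 bp, against 69.7 and 181 bp for unshared ones. The Snail medians were 93.1 and 449 bp for shared and 80.9 and 488 bp for unshared peaks.

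**Figure D3:**
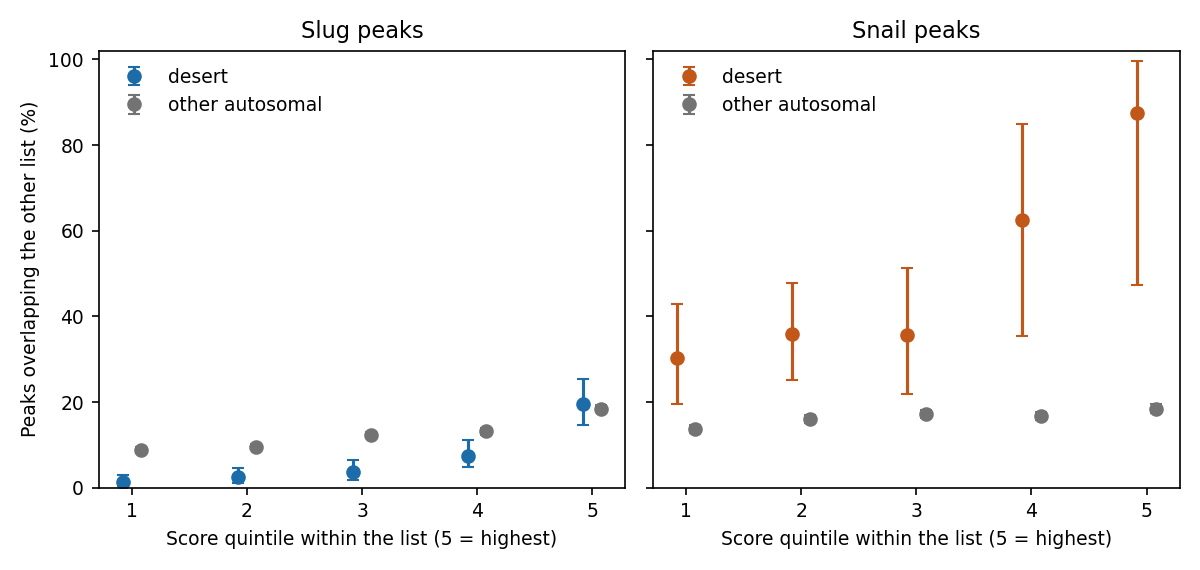
Percentage of Slug peaks (left) and Snail peaks (right) that overlap a peak of the other list, by quintiles of the list's score, for desert peaks (coloured) and other autosomal peaks (grey), with 95% binomial intervals. Slug desert peaks reach the level of other peaks only in the highest quintile (19.6% against 18.5%), and Snail desert peaks lie above it in every quintile.

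At shared desert sites the narrow Slug peak usually sat inside the wider Snail peak. This was so for 56 of the 92 shared Slug peaks (60.9%), and the midpoints were a median of 58.5 bp apart. Every Snail partner was itself a desert peak. Scores at the shared sites had a Spearman correlation of 0.448 across the 92 pairs, given as a description since sites of 1 library share its depth. The 92 Slug peaks had 79 distinct Snail partners, so some Snail scores enter more than once. All 10 of the highest-scoring Slug desert peaks, with scores of 1006 or more, were shared, and so were 9 of the 10 highest-scoring Snail desert peaks, with scores of 452 or more. Sharing was also the rule at the top of the whole lists, where 88 of the 100 highest-scoring Slug peaks and 71 of the 100 highest-scoring Snail peaks were shared.

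The strongest shared sites were these. The highest Slug score, 3100.0, occurred at chr3:56575355-56575785, between Nbea, a neuronal trafficking protein gene 392 kb away, and Tm4sf1. The Snail peak over it scored 2348 and its midpoint was 23 bp away. The same Slug score occurred at chr12:97061416-97061808, 1141 kb from Galc, the gene of a lysosomal galactosidase, and 1276 kb from Flrt2, the gene of a membrane protein of the axon guidance family. Its Snail partner scored 3080.1, the highest of the Snail desert peaks. Slug peaks outside deserts also had scores of up to 3100.0, so this top Slug score was tied within the list. Another site on the other side of Flrt2, at chr12:93576959-93577273, scored 2807 for Slug and 1289 for Snail. It lay 2115 kb from Flrt2 and 682 kb from Gm40892. At chr3:5860328-5860842, 282 kb from the peroxisome biogenesis gene Pex2, the scores were 1829 and 2294.

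Other shared sites of the top 10 had unlike ranks in the lists. The site at chr9:82680774-82681511, 149 kb from Irak1bp1, ranked 89 in the Slug list with a score of 1565, and 18435 in the Snail list with a score of 95. At chr5:80500846-80500990, 518 kb from the latrophilin gene Adgrl3, the Slug score was 1412 and the Snail score 415. A site 196 kb from Chl1, a neural cell adhesion gene, at chr6:103314587-103314822 scored 1781 for Slug and 879 for Snail. The remaining Slug sites of this group lay 2102 kb from Pcdh9 (score 1479.8), 640.4 kb from Nxph1 (1198) and 176 kb from Rbfox1 (1006). Among Snail peaks the list adds a site 267 kb from Cntnap2, a neurexin family gene, with a score of 915 and a Slug partner of 456. Whether input DNA was high at these sites was not tested.

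The strongest desert peaks without a partner were lower, and apart from the first Snail peak they were chosen after their values were seen. In the Slug list the first was chr14:95257848-95258563 with a score of 944. It lay 623 kb from Spertl and, on the other side, 1365 kb from the protocadherin gene Pcdh9. The second was chr13:86326698-86327011 with a score of 830.2, 280.1 kb from Cox7c. In the Snail list they were chr14:8800215-8800699 with a score of 889, 134 kb from Cfap20dc, and chr8:90121782-90123007 with a score of 349, 125 kb from Tox3, a chromatin factor of the high mobility group.

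The peaks nearest to the threshold of 100 kb are given as values. The 2 Slug peaks just inside scored 75.2 and 54.8, and the 2 just outside, both at 99.9 kb, scored 79.3 and 168. The 2 Snail peaks just inside scored 67.8 and 136, and those just outside, at 99.9 and 99.7 kb, scored 79.8 and 67.7.

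Most deserts with a Snail peak also held a Slug peak. Of the 1147 deserts between genes, 613 (53.4%) held a Slug peak and 142 (12.4%) a Snail peak. Both were present in 122 deserts, Slug alone in 491, Snail alone in 20 and neither in 514. Slug was thus in 85.9% of the deserts with a Snail peak and in 48.9% of those without. Longer deserts have more room for either: the median core was 173 kb in deserts with a Slug peak and 46.1 kb in those without, and 161 and 88.3 kb for Snail. An overlapping pair occurred in 65 deserts. A single peak was the usual case for Snail, in 104 of its 142 deserts (73.2%), and less so for Slug, in 246 of 613 (40.1%). At least 5 Slug peaks occurred in 74 deserts and at least 5 Snail peaks in 1.

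The spacing of peaks within deserts is given as a description, since it was not set against an even placement. Among the 1325 Slug desert peaks with a neighbour in the same desert, the nearest was a median of 31.6 kb away, and 314 of all Slug desert peaks (interval 18.0 to 22.1%) had a neighbour within 10 kb. The corresponding Snail values were 19.3 kb for 106 peaks and 43 peaks within 10 kb (20.5%, 15.2 to 26.6). Runs of at least 3 peaks, each within 10 kb of the next, numbered 26 for Slug, the largest with 8 peaks, and 4 for Snail, the largest with 4. Density by chromosome ranged from 6.15 Slug peaks per Mb of desert core on chromosome 9 to 12.4 on chromosome 19, and for Snail from 0.380 on chromosome 14 to 2.97 on chromosome 13.

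The intervals of Slug density overlapped between the shortest and the longest deserts, and Snail density was lowest in the longest. From the shortest to the longest quintile of the deserts, Slug peaks per Mb of core were 12 (8.56 to 16.3), 9.80, 9.24, 8.79 and 8.22 (7.67 to 8.80). The Snail values were 0.899 (0.185 to 2.63, from 3 peaks), 2.65 (1.79 to 3.78), 2.04, 1.31 and 0.698 (0.545 to 0.881). The longest quintile, from 446 to 1468 kb, held 836 Slug peaks and 71 Snail peaks. A Slug peak was present in 93.0% of those deserts and a Snail peak in 21.3%.

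**Figure D4:**
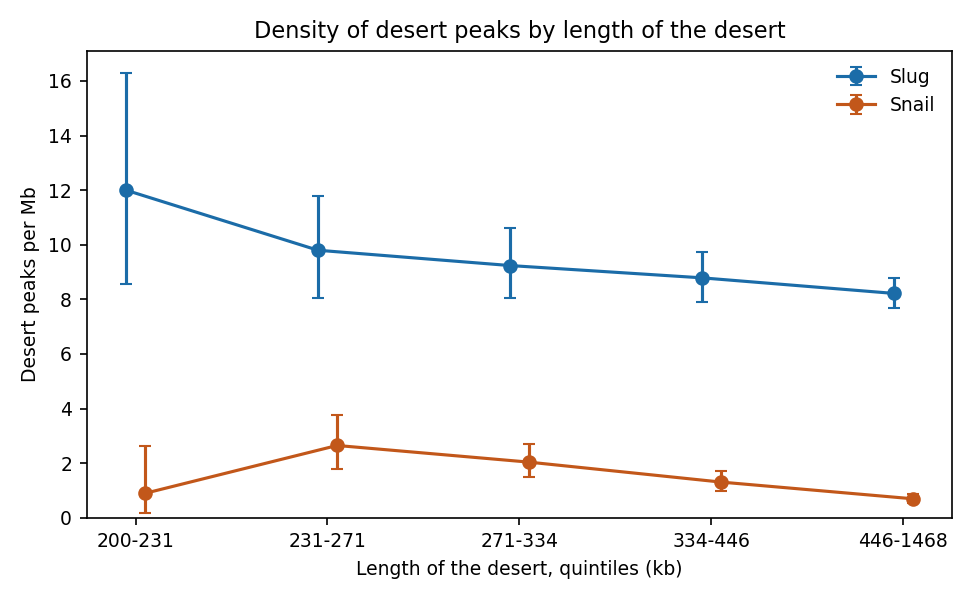
Desert peaks per Mb of desert core for quintiles of the deserts by length (kb), for Slug (blue) and Snail (orange), with 95% Poisson intervals. Slug goes from 12 to 8.22 per Mb, and Snail from its highest value of 2.65 in the second quintile to 0.698 in the longest.

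The longest desert held the most Slug peaks and no Snail peak. This stretch of 1468 kb, chr4:29196279-30664595, lies between Epha7, an ephrin receptor gene, and Map3k7, which encodes the kinase TAK1. It held 19 Slug peaks and 0 Snail peaks, with Slug scores of up to 508 and a median of 64.6. Among them, at 708 kb from any gene, was the Slug peak farthest from a gene. The core of this desert was 1268 kb. The longest quintile of deserts had 0.698 Snail peaks per Mb, so a count of 0 is unremarkable. The other 4 longest deserts had Slug peaks too. There were 9 between the cadherin genes Cdh6 and Cdh9, 7 between Olfm4 and Pcdh17, 9 between D3Ertd751e and the protocadherin gene Pcdh10, and 6 between Lcorl and the guidance ligand gene Slit2. Only the last of these 4 held Snail peaks, of which there were 4. A second desert rich in Slug peaks, chr8:44048370-44747478, lies 186 kb from Fat1, an atypical cadherin gene. It held 18 Slug peaks with scores of 56.3 to 310.0, a density of 36.1 per Mb, and 2 Snail peaks, which overlapped the same Slug peak.

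The desert below Sox9 had the highest Slug density of those named for their Slug counts. Sox9 encodes a transcription factor of epithelial stem cells and of chondrocytes, at chr11:112782210-112787757. The desert, chr11:112174942-112663926, ends 118 kb from the gene. Its core of 289 kb held 15 Slug peaks, or 51.9 per Mb, from 241 to 484 kb from Sox9. The highest score there was 279, at chr11:112339244-112339963, and the other Slug peaks with scores above 100 were at 455 kb (131) and 273 kb (111). The 1 Snail peak, 312 kb from Sox9, scored 62.2 and overlapped no Slug peak. A second desert beyond it, 625 kb from Sox9, held 5 more Slug peaks with scores from 59.2 to 149.

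The next deserts were named for their number of Snail peaks or of peaks of both factors. The desert chr9:49825976-50168414, between the neural adhesion gene Ncam1 and Plet1, held 5 Snail peaks, the most of any desert. Their scores were 57.0, 225, 236, 153 and 259.7, and the last 4 of them lay 155 to 180.0 kb from the low-coordinate end of the desert. The 3 Slug peaks there scored 90.7, 54.1 and 103, and overlapped no Snail peak. The desert between Dpp10 and Actr3, chr1:124859035-125392904, similarly held 4 Snail peaks with scores of 57.0 to 196 within a stretch from 355 to 378 kb. Its 3 Slug peaks lay at 268 to 343 kb, with 0 overlaps. The deserts between Dsel and Cntnap5a, Lcorl and Slit2, and Igfbp7 and Adgrl3 also held 4 Snail peaks each. In the desert next to Cdyl, a chromodomain gene, at chr13:35293278-35659817, there were 4 peaks of each factor and 2 shared sites. The desert between Cadm2 and Speer2, chr16:69000109-69796140, held 7 Slug and 3 Snail peaks. All 3 of those Snail peaks overlapped a Slug peak. The Slug partner of 1 of them had a score of 616, the highest in that desert.

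**Figure D5:**
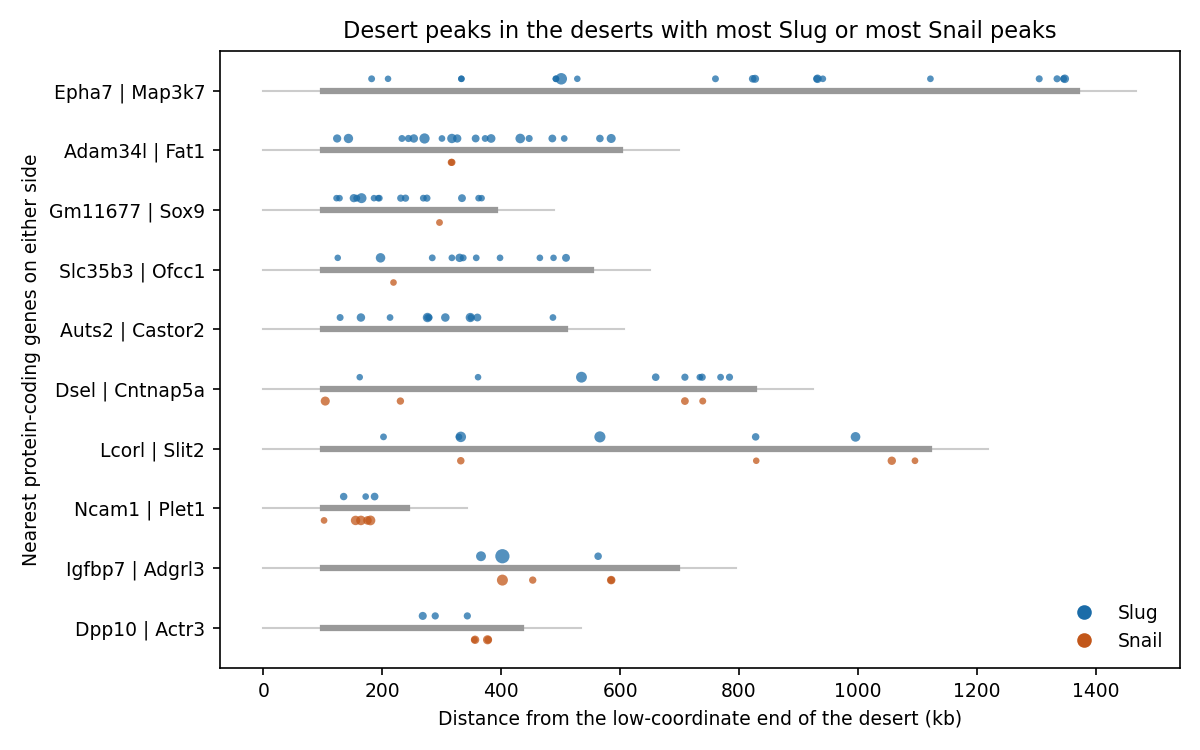
Desert peaks of Slug (blue, above each line) and Snail (orange, below it) along the 10 deserts with most peaks of either list, against distance from the low-coordinate end (kb), named by the nearest protein-coding genes; thick lines are the desert cores and larger points have higher scores within a list. The Epha7 desert holds 19 Slug and 0 Snail peaks, and the Ncam1 desert 3 and 5.

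The annotated gene nearest to a desert peak was seldom protein-coding. It was a pseudogene for 37.6%, a long non-coding RNA for 32.5% and a protein-coding gene for 15% of Slug desert peaks. The Snail shares were 29.0, 34.3 and 21.0%. Of the 49595 placed genes of all biotypes, 21774 were protein-coding. The biotypes at the edges of all deserts are not given here, so these shares describe the surroundings and are not read as a trait of the peaks. The nearest protein-coding gene was a median of 415 kb away for Slug (quartiles 218 and 658) and 252 kb for Snail (160.4 and 496).

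Protein-coding genes on either side of a desert were then counted by class. A gene was taken as next to a desert when it was the nearest protein-coding gene on that side, which held for 1143 of 21774 placed protein-coding genes (5.25%). Being nearest does not make a gene the target of a peak, and no such link was tested. Among these 1143, an adjoining desert held a Slug peak for 752 (65.8%) and a Snail peak for 252 (22.0%), and these are the shares against which a class is read. Densities count each desert once in a class, and a desert can belong to more than 1 class. Genes of neuronal adhesion and synapses, such as cadherins and protocadherins, were next to a desert most often, in 77 of 105 cases (73.3%). An adjoining desert held a Slug peak for 64 of these 77 genes (83.1%, 72.9 to 90.7) and a Snail peak for 26 (33.8%, 23.4 to 45.4). Their deserts were longer, with a median core of 137 kb against 98.5 kb over all deserts. Per length they held 8.12 Slug peaks per Mb (7.42 to 8.86) and 0.626 Snail peaks per Mb (0.445 to 0.855), against 8.65 and 1.13 over all deserts. Cdh8 had the most Slug peaks of this class, 30 in 12 deserts with 0 Snail peaks, and Cntnap5a had 28 Slug and 5 Snail peaks in 8 deserts.

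Developmental transcription factors had a like share of genes with a peak in an adjoining desert, but more peaks per length. Of 139 genes, 46 (33.1%) were next to a desert, of which 33 (71.7%, 56.5 to 84.0) had a Slug and 14 (30.4%, 17.7 to 45.8) a Snail peak in it. Their deserts held 15.7 Slug peaks per Mb (13.1 to 18.8) and 2.81 Snail peaks per Mb (1.76 to 4.26), and had a median core of 84.2 kb. Leaving out Sox9, the member with most Slug peaks, left 13.9 Slug peaks per Mb. Leaving out Isl1, which had most Snail peaks, left 2.66 Snail peaks per Mb. Isl1, a LIM homeodomain factor, had 10 Slug and 3 Snail peaks, and Osr1, an odd-skipped factor of kidney and limb, had 3 of each. Sox11, a factor of neural progenitors, had 8 Slug and 0 Snail peaks. Of 70 growth factors and morphogens 19 (27.1%) were next to a desert. Slug peaks lay in the deserts of 12 of these (63.2%) and Snail peaks in those of 4 (21.1%), at 7.95 and 1.69 peaks per Mb. Without Slit2, which had most peaks of both factors, the densities were 9.04 Slug and 1.04 Snail peaks per Mb. Slit2 had 7 Slug and 4 Snail peaks, and Bmp2, a bone morphogenetic protein gene, had 5 and 1.

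Regulators of EMT and of mammary epithelium form small classes. Of 27 EMT factors 4 (14.8%) were next to a desert, and 3 of them had a Slug and 3 a Snail peak, at 18.4 Slug peaks per Mb (13.1 to 25.2). Without Sox9, which is in this and the next class, the density was 11.1 per Mb. Zeb2, a zinc finger repressor of E-cadherin, had 18 Slug and 3 Snail peaks in 5 deserts above it, from 813 to 3547 kb away. The nearest of these was a shared site at chr2:45930325-45930966, with a Slug score of 253 and a Snail score of 78.8. The highest Slug scores in these deserts, 284 and 268, lay 856 and 947 kb from Zeb2. Ets1, an ETS family factor, had 1 peak of each factor in different deserts, at a Slug score of 52.0 and a Snail score of 249.7.

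Of 39 epithelial and mammary regulators 10 (25.6%) were next to a desert. Slug peaks lay in the deserts of 8 of them (80.0%, 44.4 to 97.5) and Snail peaks in those of 4 (40.0%, 12.2 to 73.8). The densities were 23.2 and 3.57 peaks per Mb. The Slug value without Sox9 was 17.4 per Mb, and the Snail value without Myc, which had most Snail peaks, was 2.12 per Mb. Gata3, a luminal cell fate factor, had 12 Slug peaks and 1 Snail peak in 3 deserts below it. In the desert that ends at Gata3 itself, 3 Slug peaks lay 106, 125 and 135 kb from the gene, with scores of 78.1, 67.1 and 371. The highest-scoring site in the 3 deserts, chr2:7794821-7795538, was 2062 kb from Gata3 and shared, at a Slug score of 873 and a Snail score of 136. Its desert held 7 of the 12 Slug peaks and the 1 Snail peak. Celf2, the protein-coding gene on the other side of that desert, was nearer to these peaks than Gata3. Myc, a growth-promoting oncogene, had 6 Slug and 4 Snail peaks in deserts on both sides. Of its Snail peaks 3 lay 444 to 452 kb below the gene, with scores of 51.4 to 58.8, and 0 overlapped a Slug peak. Klf4, a factor of epithelial differentiation, had 4 Slug and 2 Snail peaks, none of them shared. Its highest Slug score was 174, at 256 kb, and its highest Snail score 179.9, at 582 kb. Id2, Nfib, Prlr and Trp63 had Slug peaks and 0 Snail peaks in their deserts, with highest Slug scores of 100.3, 105, 50.7 and 52.1. The cores of these deserts were 139, 58.9, 228 and 29.6 kb. Snail had 1.13 peaks per Mb over all deserts, so counts of 0 in such lengths are unremarkable.

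Olfactory and vomeronasal receptor genes, which lie in clusters, gave 2 of 1474 genes (0.136%) next to a desert, and ribosomal protein genes 3 of 80 (3.75%). Slug peaks lay in the desert of 1 of the 2 and of all 3, and Snail peaks in that of 0 and 1.

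Genes next to a desert were also asked for a peak of the same factor within 10 kb of their own ends. For Snail this was the case for 60.7% (54.4 to 66.8) of genes whose desert held a Snail peak and 48.9% (45.6 to 52.3) of those whose desert held none. For Slug the shares were 44.1% (40.6 to 47.8) and 40.7% (35.8 to 45.7), and their intervals overlap. Deserts with a peak were longer, with a median core of 302 against 124 kb for the Snail comparison, and the part of length in this difference was not tested. The end of the gene that faced the desert gave 8.89 Slug peaks per Mb where it was the start and 8.53 where it was the far end, and 1.27 and 0.961 Snail peaks per Mb.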

How the data were processed

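The data are 2 peak lists, 1 from each ChIP library. Bowtie, MACS 1.4.2 and mm10 stand in the submitters' processing notes. A row gives the position of a peak and the score that the authors' caller assigned to it. Not given in the sources used here are the MACS settings, the control and the scale of the score. Sequencing depth is unknown.

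Starts were converted to 1-based positions, and peaks were placed by their midpoints. Genes came from the RefSeq table of GRCm38.p6. Of its 49943 rows, 348 were left out. From the order of the rows these were taken to lie on scaffolds or patches, whose positions are not chromosome positions. With them kept, the desert cores added up to 206 Mb. Promoters are from the RefSeq table of that assembly. Calculations used Python 3.11.15, scipy 1.17.1, pandas 2.3.3, numpy 2.4.6 and, for plots, matplotlib 3.10.9, and the code was tested on simulated peaks. Shares have exact binomial and densities Poisson intervals at 95%. No p-value was computed, since each factor had 1 library.

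Peaks named were the 10 highest-scoring, the 10 highest-scoring shared and the 2 nearest to the threshold on either side in each list. Deserts named were the 5 with most peaks of each list or of both and the 5 longest. Up to 10 flanking genes of each of 7 gene lists were named, by number of peaks. The rule, the desert peaks and the gene lists were chosen with earlier results of these data known. Motif counts in the desert peaks were planned and not run, for lack of a genome. Alternatives changed the distance, the genes, the chromosomes, the score and the overlap. Some items that the naming rule covers are not reported here.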

Additional observations from a re-analysis of the deposited data

Results flagged for a closer look

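The share of peaks overlapping the other list moved in opposite directions in deserts. Compared with other autosomal peaks, it was different by -6.66 percentage points for Slug desert peaks and by 21.6 percentage points for Snail desert peaks. This difference between the libraries was not tested, and the shares are tied, since both count the same overlapping places in lists of unequal length.

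Peaks on the sex chromosomes were outside the comparisons. By the same distance rule, 64 Slug peaks on chromosome X (5.53% of 1158) and 48 on chromosome Y (36.6% of 131) lay in deserts. The Snail list had 3 such peaks on each, of 560 and 19.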

How the results depend on the processing

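Of 124 values of 12 results under 12 alternative settings, 80 stayed within the interval or the 1.5-fold margin set for them, 44 moved beyond it and 0 reversed. No paired analysis was possible because each factor had 1 library, which also means that no library was left out. The 2 settings chosen after seeing the data kept the scaffold rows of the gene table or left out the chromosome ends.

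The genes counted moved the peak counts furthest, then the distance. With more than 50 kb, 3550 Slug (8.80%) and 564 Snail peaks (2.03%) counted, with density ratios of desert to elsewhere of 0.546 and 0.116. With more than 200 kb, 461 (1.14%) and 41 (0.148%) counted, and the Snail ratio was 0.0604, the Snail shared share 65.9% and the Snail width difference in medians -289 bp. With protein-coding genes only, 7223 (17.9%, ratio 0.576) and 1526 (5.49%, ratio 0.151) counted, with a Snail shared share of 28.0% and score difference of -74.6. Without predicted or unnamed genes the values were 6945 (17.2%, 0.580), 1433 (5.16%, 0.151), 28.3% and -74.8. With X and Y the ratios were 0.441 and 0.0782, and with the scaffold rows kept the Slug ratio was 0.439.

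With scores of at least 100, 519 Slug (3.24%, ratio 0.410) and 75 Snail peaks (0.430%, ratio 0.0516) counted, with median score differences of -12.8 and -230.4 and width differences of -18.0 and -312 bp. When each peak had to cover 50% of the other, 3.18% of the Slug desert peaks and 23.8% of those of Snail were shared. Fewer peaks or genes enter most of these settings by construction. Otherwise the cause was not tested.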
